A study of Homo sapiens with 6 samples.

Results

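Aldehyde dehydrogenases oxidise aldehydes to acids with NAD or NADP, and the human genes form 1 family. Its enzymes sit in the cytosol, the mitochondria and the endoplasmic reticulum. In liver they clear acetaldehyde made from ethanol, make retinoic acid, and finish the breakdown of several amino acids, of choline and of fatty aldehydes. The 10 genes described here were taken by symbol from a list: ALDH1A1, ALDH1B1, ALDH1L1, ALDH2, ALDH3A2, ALDH4A1, ALDH6A1, ALDH7A1, ALDH8A1 and ALDH9A1. All 10 were among the 16659 genes measured, and all 10 passed the filter on low values (above 1 scaled CPM in at least 3 of the 6 libraries).

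RNA came from HepaRG, a human liver tumour line that the labels describe as hepatic stem cells, in 3 libraries labelled as a functional knockout of PXR and 3 labelled wild type, the control. No cells received a drug. PXR, the pregnane X receptor, is a nuclear receptor encoded by NR1I2 that switches on drug metabolism genes. The labels do not say how the knockout was made or whether it is 1 clone. Whether each library is a culture of its own is not stated, and the errors and p-values here describe how far these libraries scatter, and that scatter may be technical.

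Levels are in scaled CPM, reads per gene relative to a scaled library size. Estimated depth was 28154914 to 33393110 reads in the knockout libraries and 11359209 to 20945994 reads in the wild-type libraries. NR1I2 RNA had 13.1, 13.4 and 14.3 scaled CPM in knockout libraries, against 8.24, 7.04 and 7.60 scaled CPM in wild-type libraries. It was called higher in the knockout, with a log2 change of 0.80 ± 0.084 (SE, limma adjusted p = 6.8e-07). CYP3A4, a known target gene of PXR in liver, averaged 257 ± 4.80 scaled CPM in the knockout and 13.7 ± 0.39 in wild type (SD, n = 3 each). Neither RNA was lower in the libraries labelled knockout, and a value summed over the gene does not show whether the receptor works, so the knockout is called so here by its label alone. In all, 13 of 13 measured hepatocyte markers rose, with a summed level of 43518 to 44692 scaled CPM in knockout libraries and of 2232 to 2303 in wild-type libraries. Their defining marker ALB averaged 32829 ± 511 scaled CPM in the knockout and 867 ± 36.1 in wild type. The part of this rise in the changes described next was not tested. Of 9 tested stellate and mesenchymal markers 5 rose and 4 fell, with sums of 495 to 518 scaled CPM in the knockout and 130 to 136 in wild type. PDGFRA, which was not tested, was near 0 in both, at a mean of 0.24 in the knockout and 0.20 in wild type. Of those that rose, DCN averaged 334.5 ± 9.40 in the knockout and 63.1 ± 2.61 in wild type. Of those that fell, DES averaged 1.18 ± 0.19 in the knockout and 18.5 ± 0.32 in wild type. Of 5 cholangiocyte markers 3 rose and 2 fell, with sums of 571 to 597 in the knockout and 582 to 611 in wild type. Of 2 tested endothelial markers 1 rose (KDR) and 1 fell (PECAM1), with sums of 215 to 223 in the knockout and 55.0 to 55.5 in wild type. Of 2 macrophage and leukocyte markers 1 rose (CD68) and 1 fell (CD14), with sums of 20.05 to 20.9 in the knockout and 11.4 to 14.9 in wild type. The part of these markers in the changes was not tested either. More cells of a type and more RNA per cell cannot be told apart in such libraries.

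All 10 aldehyde dehydrogenase genes were higher in the knockout. The rises ran from 1.22-fold to 7.87-fold as ratios of mean levels, with the largest for ALDH4A1, a mitochondrial enzyme of proline breakdown, and the smallest for ALDH7A1, an enzyme of lysine breakdown. The median log2 change was 0.91, against 0.01 for all 16219 genes tested with limma. All 10 had a limma adjusted p under 0.05, as had 79.9% of all tested genes, with 40.3% of all called higher and 39.6% lower. The 3 knockout libraries lay above the 3 wild-type libraries at each of the 10 genes, and so did 40.8% of all tested genes, while 40% of all lay the other way. A rise of at least 2-fold was called at 5 of the 10 genes and at 12.6% of all genes. The list was drawn up with results of these data known, so these shares describe it and do not set it apart.

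**Figure D1:**
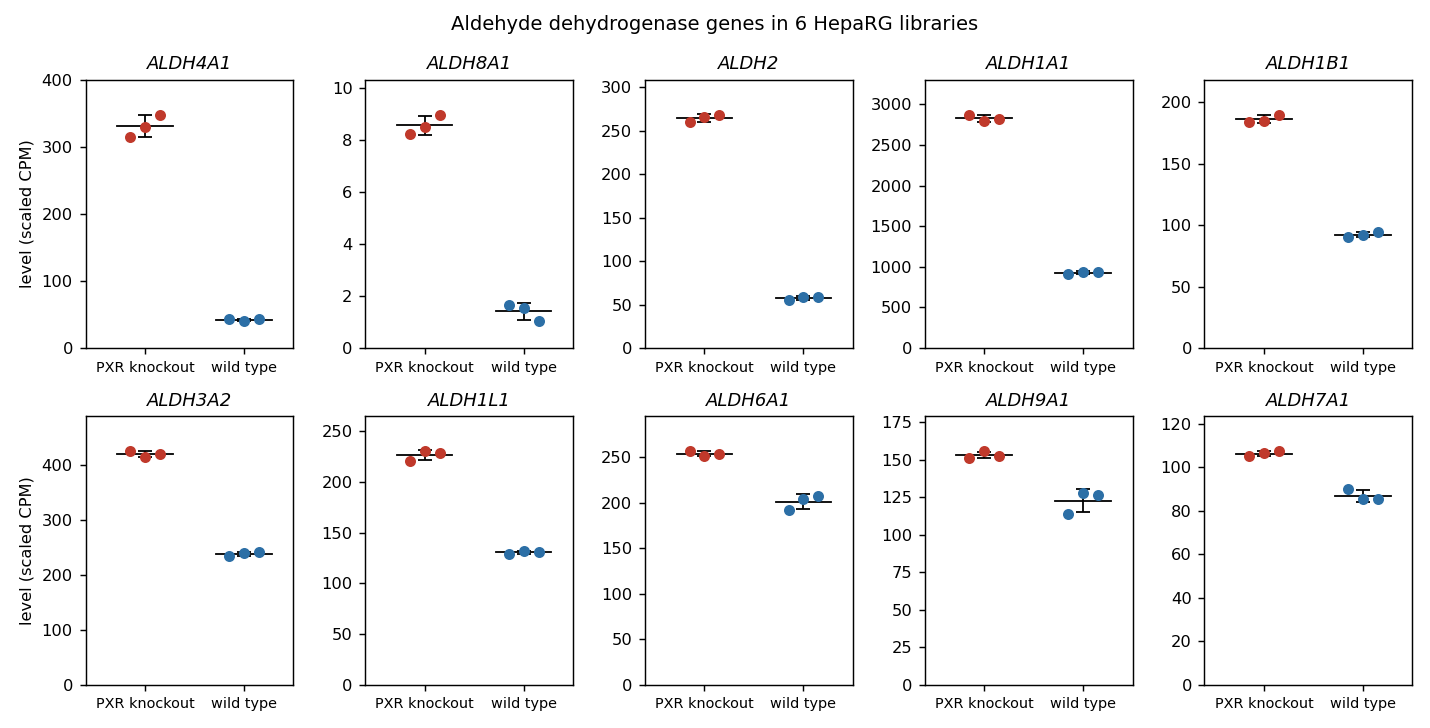
Level in scaled CPM (vertical axes, each from 0) of the 10 genes, with knockout libraries at the left and wild-type libraries at the right of each panel; points are libraries, lines the mean and bars the SD over 3 libraries. No panel has overlapping groups, and the ratio between groups is lowest at ALDH7A1, at 106 ± 1.17 in the knockout and 86.8 ± 2.74 in wild type.

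Promoters are shown for 3 members with large rises and for 1 that changed little, so that their letters can be set side by side. RefSeq windows of 250 bases before to 50 after a start on GRCh38.p14 were found for 9 of the 10 genes, 12 windows in all. None was found for ALDH2, which rose more than ALDH1A1. The 5 windows printed belong to ALDH4A1 (both annotated starts), ALDH8A1, ALDH1A1 and, from the genes that changed least, ALDH6A1. They lie on the minus strand at chr1:18902506-18902805 and chr1:18890842-18891141 (ALDH4A1), chr6:134950052-134950351 (ALDH8A1), chr9:72953004-72953303 (ALDH1A1) and chr14:74084404-74084703 (ALDH6A1). Each reads 5′ to 3′ on the strand of its gene, and capitals mark matches, on either strand, to any of 6 motifs spelled out after the sequences.

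ALDH4A1, first start: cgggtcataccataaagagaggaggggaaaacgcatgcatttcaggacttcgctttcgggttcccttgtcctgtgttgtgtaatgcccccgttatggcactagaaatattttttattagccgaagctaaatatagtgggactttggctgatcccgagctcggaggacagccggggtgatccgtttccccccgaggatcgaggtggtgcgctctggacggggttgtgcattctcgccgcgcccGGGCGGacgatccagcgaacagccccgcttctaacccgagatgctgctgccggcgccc
ALDH4A1, second start: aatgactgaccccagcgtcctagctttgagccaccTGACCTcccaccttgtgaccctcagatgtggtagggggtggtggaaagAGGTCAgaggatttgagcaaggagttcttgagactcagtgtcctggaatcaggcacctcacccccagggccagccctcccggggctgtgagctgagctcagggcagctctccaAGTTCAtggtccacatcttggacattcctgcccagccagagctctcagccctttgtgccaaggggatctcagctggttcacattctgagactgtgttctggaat
ALDH8A1: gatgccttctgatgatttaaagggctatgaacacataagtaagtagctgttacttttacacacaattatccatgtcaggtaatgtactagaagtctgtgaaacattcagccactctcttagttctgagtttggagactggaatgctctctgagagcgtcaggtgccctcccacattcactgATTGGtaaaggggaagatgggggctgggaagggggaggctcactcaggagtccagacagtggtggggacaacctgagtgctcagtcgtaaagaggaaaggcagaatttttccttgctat
ALDH1A1: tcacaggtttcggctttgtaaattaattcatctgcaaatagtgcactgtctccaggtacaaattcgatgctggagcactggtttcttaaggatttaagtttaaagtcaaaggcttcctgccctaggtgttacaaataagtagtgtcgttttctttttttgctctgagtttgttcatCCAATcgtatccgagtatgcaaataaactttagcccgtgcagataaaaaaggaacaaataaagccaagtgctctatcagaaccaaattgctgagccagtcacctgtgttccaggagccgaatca
ALDH6A1: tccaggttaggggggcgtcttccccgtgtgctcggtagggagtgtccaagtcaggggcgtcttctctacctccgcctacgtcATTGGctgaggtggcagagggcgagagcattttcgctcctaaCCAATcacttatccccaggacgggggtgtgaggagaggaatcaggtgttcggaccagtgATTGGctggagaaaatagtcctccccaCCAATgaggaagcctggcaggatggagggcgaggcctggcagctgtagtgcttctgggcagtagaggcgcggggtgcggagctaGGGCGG

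The windows differed in kind. CCAAT, the letters of a common promoter element, was found in 6 of the 12 windows (ALDH1A1, ALDH1B1, ALDH3A2, ALDH6A1, ALDH7A1 and ALDH8A1), and in 34.6% of all 35114 promoter windows. The ALDH1A1 window held it at position -74 from the start, and the ALDH6A1 window held it 4 times. GGGCGG, the letters of an Sp1 GC box, was in 7 of 12 windows and in 45.0% of all. AGGTCA, a half-site of nuclear receptors, was in the second ALDH4A1 window (2 matches, at positions -215 and -167 from the start) and in 1 ALDH1L1 window, and in 13.8% of all. AGTTCA, a variant half-site, was in the second ALDH4A1 window only among the 12, and in 10.4% of all. TATAAA was in 1 ALDH1L1 window (11.5% of all) and CACGTG in 1 ALDH3A2 window (7.26% of all). Among the 5 windows printed, CpG pairs ran from 2 in the ALDH8A1 window and the second ALDH4A1 window to 25 in the first ALDH4A1 window. A match describes letters and is not a binding site, and the deposited gene values do not say which start was used.

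ALDH1A1 (ENSG00000165092.13, GRCh38 chromosome 9, 72900662 to 73080442, minus strand) encodes a cytosolic enzyme that oxidises retinal to retinoic acid. Its level was 2871, 2789 and 2822 scaled CPM in knockout libraries 1 to 3, against 906, 934 and 938 scaled CPM in wild-type libraries 1 to 3. All knockout libraries were about 3 times as high as any wild-type library, and the groups did not overlap. The log2 change was 1.61 ± 0.027 (SE, limma adjusted p = 1.6e-15). Tested genes within 10 Mb had a median log2 change of 0.26.

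The genes for mitochondrial acetaldehyde oxidation also rose. ALDH2 (ENSG00000111275.13, chromosome 12, 111766887 to 111817529, plus strand) encodes the main such enzyme of liver. It had 260, 265.7 and 268 scaled CPM in knockout libraries, against 55.3, 59.1 and 58.2 in wild-type libraries. The groups stood far apart, with a log2 change of 2.19 ± 0.032 (limma adjusted p = 3.6e-16), while the tested genes within 10 Mb had a median of 0.44. An overlapping gene on the same strand that shares exon positions with ALDH2, AC002996.1, averaged 7.82 ± 1.77 scaled CPM in the knockout and 0.75 ± 1.07 in wild type (SD, n = 3 each). Reads of the shared exons cannot be assigned to either gene with certainty.

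ALDH1B1 (ENSG00000137124.8, chromosome 9, 38392664 to 38398661, plus strand) encodes another mitochondrial form that also acts on acetaldehyde. It had 184, 185 and 190.0 scaled CPM in knockout libraries, against 90.5, 92.3 and 94.2 in wild-type libraries. Its log2 change was 1.01 ± 0.029 (limma adjusted p = 4.3e-13). The median of tested genes within 10 Mb was 0.48, and with that median taken out the change was 0.53 (limma adjusted p = 5.5e-10).

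The balance of these mitochondrial forms moved, a measure that does not depend on the scaling between libraries. The log2 ratio of ALDH2 to ALDH1B1 levels was 0.50, 0.52 and 0.50 in knockout libraries and -0.71, -0.64 and -0.69 in wild-type libraries. ALDH2 therefore gave the higher value of the pair in every knockout library and the lower in every wild-type library, although levels not corrected for length do not rank the genes. The means differed by 1.18 (exact permutation test over libraries, two-sided, p = 0.1, n = 3 each, 1 pair tested), and 0.1 is the smallest p that 3 libraries against 3 allow. Ratios of ALDH1L1 to ALDH1L2 and of ALDH1A1 to ALDH1A3 were not analysed here.

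ALDH3A2 (ENSG00000072210.18, chromosome 17, 19648136 to 19677598, plus strand) encodes the fatty aldehyde dehydrogenase of the endoplasmic reticulum, whose loss causes Sjögren-Larsson syndrome. Its level was 425, 415 and 421 scaled CPM in knockout libraries, against 235, 239.7 and 242 in wild-type libraries. Both groups were tight and apart, with a log2 change of 0.81 ± 0.025 (limma adjusted p = 8.6e-13). ALDH1L1 (ENSG00000144908.13, chromosome 3, 126103562 to 126197994, minus strand) encodes the cytosolic 10-formyltetrahydrofolate dehydrogenase, which takes one-carbon units out of the folate pool. It had 221, 230.2 and 228 scaled CPM in knockout libraries, against 129, 132 and 131 in wild-type libraries. Its log2 change of 0.79 ± 0.028 (limma adjusted p = 3.3e-12) had a 95% interval of 0.73 to 0.85, which overlapped that of ALDH3A2 (0.76 to 0.87). The antisense gene ALDH1L1-AS2, which overlaps the locus but no ALDH1L1 exon, averaged 1.45 ± 0.070 scaled CPM in the knockout and 0.45 ± 0.068 in wild type. Another antisense gene, ALDH1L1-AS1, shares exon positions with ALDH1L1 and was not analysed here, so their reads may be mixed.

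Of the enzymes of amino acid breakdown, ALDH4A1 rose most. ALDH4A1 (ENSG00000159423.17, chromosome 1, 18871430 to 18902781, minus strand) encodes the mitochondrial enzyme that turns pyrroline-5-carboxylate into glutamate, the last step of proline breakdown. It had 315, 330.3 and 349 scaled CPM in knockout libraries, against 43.0, 39.9 and 43.5 in wild-type libraries. The knockout libraries were spread by more than 30 scaled CPM, yet the lowest of them was over 7 times the highest wild-type library. The log2 change was 2.96 ± 0.041 (limma adjusted p = 2.4e-16), and 386 of the 16219 tested genes rose more on that scale. The protein-coding gene AL080251.1 shares exon positions with ALDH4A1 on the same strand and was not analysed here, so reads of the shared exons are uncertain. Tested genes within 10 Mb had a median of -0.10.

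ALDH8A1 (ENSG00000118514.14, chromosome 6, 134917390 to 134950122, minus strand) encodes a dehydrogenase of the kynurenine pathway of tryptophan breakdown, which acts on 2-aminomuconic semialdehyde. It was the lowest of the 10 genes, at 8.23, 8.48 and 8.96 scaled CPM in knockout libraries and 1.65, 1.55 and 1.03 in wild-type libraries. The wild-type values rested on 75 estimated reads over 3 libraries (20, 32 and 23), the knockout values on 784. The log2 change was 2.26 ± 0.14 (limma adjusted p = 1.4e-09), the widest error of the 10, and its interval of 1.97 to 2.55 contained the change of ALDH2.

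The remaining 3 genes changed least. ALDH6A1 (ENSG00000119711.12, chromosome 14, 74056850 to 74084493, minus strand) encodes the methylmalonate semialdehyde dehydrogenase of valine and pyrimidine breakdown. It had 256, 251 and 254 scaled CPM in knockout libraries, against 192, 203 and 208 in wild-type libraries. Its log2 change was 0.33 ± 0.031 (limma adjusted p = 1.5e-07). BBOF1, on the opposite strand, shares exon positions with ALDH6A1 and averaged 3.69 ± 0.19 scaled CPM in the knockout and 2.57 ± 0.45 in wild type. Whether the counting used strand is not given in the sources used here, so reads of the pair may be mixed.

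ALDH9A1 (ENSG00000143149.12, chromosome 1, 165662216 to 165698863, minus strand) encodes the trimethylaminobutyraldehyde dehydrogenase of carnitine synthesis. It had 151, 155 and 153 scaled CPM in knockout libraries, against 114, 127 and 126 in wild-type libraries. Wild-type library 1 was the lowest, and without it the log2 change was 0.27 in place of 0.32 ± 0.040 (limma adjusted p = 3.7e-06). ALDH7A1 (ENSG00000164904.18, chromosome 5, 126531200 to 126595418, minus strand) encodes antiquitin, which oxidises α-aminoadipic semialdehyde from lysine and also betaine aldehyde. It had 105, 107 and 107 scaled CPM in knockout libraries, against 89.9, 85.2 and 85.3 in wild-type libraries. The log2 change was 0.29 ± 0.032 (limma adjusted p = 1.2e-06). The 95% intervals of ALDH6A1 (0.27 to 0.40), ALDH9A1 (0.24 to 0.41) and ALDH7A1 (0.22 to 0.36) overlapped, so their order is not resolved.

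The size of these small changes depended on the scaling between libraries. Scaling to equal sums moved the median log2 change of all genes to -0.12, and to -0.13 when small RNA genes were left out of the sums. The split of all called genes then went to 5346 higher and 7715 lower, and to 5256 higher and 7873 lower without small RNA genes, in place of 6534 higher and 6426 lower. With small RNA genes left out, the log2 changes of ALDH6A1, ALDH9A1 and ALDH7A1 were 0.18, 0.17 and 0.14, with limma adjusted p of 2.7e-05, 0.00077 and 0.0016. All 10 genes stayed higher and past the threshold under each of the 3 other scalings tried.

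**Figure D2:**
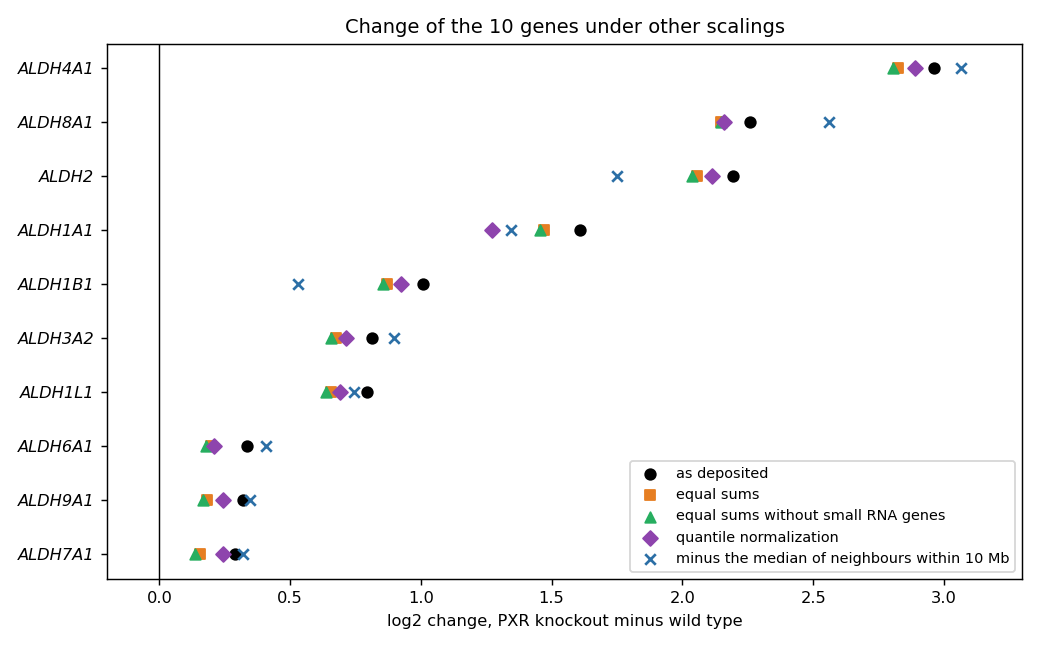
Log2 change, knockout minus wild type (horizontal axis), of the 10 genes (rows) with the deposited scaling and 4 other treatments, each a marker. All markers lie above 0, and those of ALDH6A1, ALDH9A1 and ALDH7A1 come closest, at 0.14 to 0.41.

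Levels were compared between the 10 genes per kilobase of exon (GENCODE 29). ALDH1A1 led in both groups, with 1341 ± 19.6 scaled CPM per kb in the knockout and 439 ± 8.21 in wild type (SD, n = 3 each). ALDH3A2 was next among the 10, at 102 ± 1.30 in the knockout and 57.8 ± 0.85 in wild type. Outside the 10, ALDH3A1 lay below ALDH3A2 in the knockout (15.04 ± 0.57) and above it in wild type (79.5 ± 2.00) per kilobase of exon. ALDH4A1 had rank 3 in the knockout (93.0 ± 4.68) and rank 8 in wild type (11.8 ± 0.55). ALDH8A1 was last in both, at 3.35 ± 0.15 in the knockout and 0.55 ± 0.13 in wild type. Neighbours in this order whose libraries overlapped were ALDH1L1 and ALDH1B1 in the knockout (60.9 and 60.8), and ALDH1L1 and ALDH6A1 in wild type (35.1 and 34.8). Per kilobase of coding sequence ALDH1A1, ALDH3A2 and ALDH8A1 kept these places among the 10. ALDH3A1 then lay below ALDH3A2 in wild type too, at 132 ± 3.33 against 157 ± 2.30. ALDH2, whose annotated exons span 9.60 kb for 1.55 kb of coding sequence, then had rank 4 in the knockout rather than 8, so its place depends on the length used.

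The 10 genes together had 1809 ± 16.9 scaled CPM per kb of exon in the knockout, against 677 ± 13.6 in wild type, a ratio of 2.67. ALDH1A1 made up 74.2% ± 0.50 of that sum in the knockout and 64.9% ± 0.10 in wild type. Without ALDH1A1 the sum was 467 in the knockout and 238 in wild type, a ratio of 1.97. Over all 15 measured family genes, 5 of which are described next, the ratio was 2.29, and 1.42 without ALDH1A1. ALDH1A1 made up 71.0% ± 0.55 of the sum over 15 genes in the knockout and 53.2% ± 0.23 in wild type. Per kilobase of coding sequence it made up less, 58.7% ± 0.59 in the knockout and 42.1% ± 0.19 in wild type over 15 genes. Over the 10 genes it then made up 61.6% ± 0.55 in the knockout and 51.4% ± 0.10 in wild type. Of the sum over the 10 genes per kilobase of exon, ALDH4A1 took 5.14% ± 0.27 in the knockout and 1.75% ± 0.097 in wild type. ALDH9A1 took a smaller part of that sum in the knockout, 3.14% ± 0.076 against 6.71% ± 0.29 in wild type. Its own level was higher in the knockout.

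**Figure D3:**
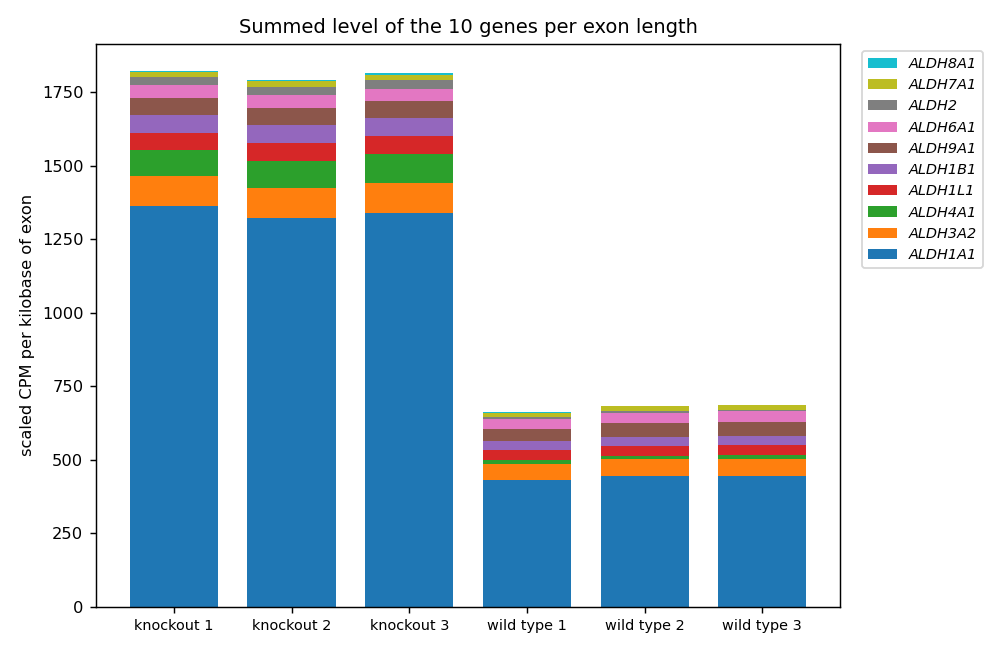
Summed level of the 10 genes in scaled CPM per kilobase of exon (vertical axis, from 0) in knockout libraries 1 to 3 and wild-type libraries 1 to 3, with a colour for each gene. The bars reach 1790 to 1823 in the knockout and 661 to 687 in wild type, and ALDH1A1 fills most of each.

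Another 5 genes of the family were measured, and most of them fell. ALDH3B1 rose, while ALDH3A1, ALDH5A1, ALDH18A1 and ALDH16A1 fell, which makes 11 higher and 4 lower of 15 measured family genes with a median log2 change of 0.53. ALDH3A1, a dehydrogenase of aromatic and medium-chain aldehydes that is abundant in cornea and in some tumours, had 32.9, 35.4 and 33.6 scaled CPM in knockout libraries, against 177, 177 and 185 in wild-type libraries. Its log2 change was -2.39 ± 0.036 (limma adjusted p = 5.7e-16). Its nearest end lies 60.4 kb from ALDH3A2 on chromosome 17, and these neighbours changed in opposite directions. ALDH5A1, the succinic semialdehyde dehydrogenase of GABA breakdown, averaged 40.8 ± 1.58 scaled CPM in the knockout and 58.7 ± 0.21 in wild type. ALDH18A1, which makes pyrroline-5-carboxylate for proline synthesis, averaged 67.5 ± 1.70 in the knockout and 94.99 ± 1.39 in wild type. ALDH16A1, a member thought to lack catalytic activity in mammals, averaged 23.1 ± 0.98 in the knockout and 28.3 ± 2.63 in wild type. Its exons overlap those of PIH1D1, on the opposite strand, which fell by 1.68 on the log2 scale. They also overlap those of AC010619.1, a protein-coding gene on the same strand that was not analysed here. Reads of these genes may be mixed.

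**Figure D4:**
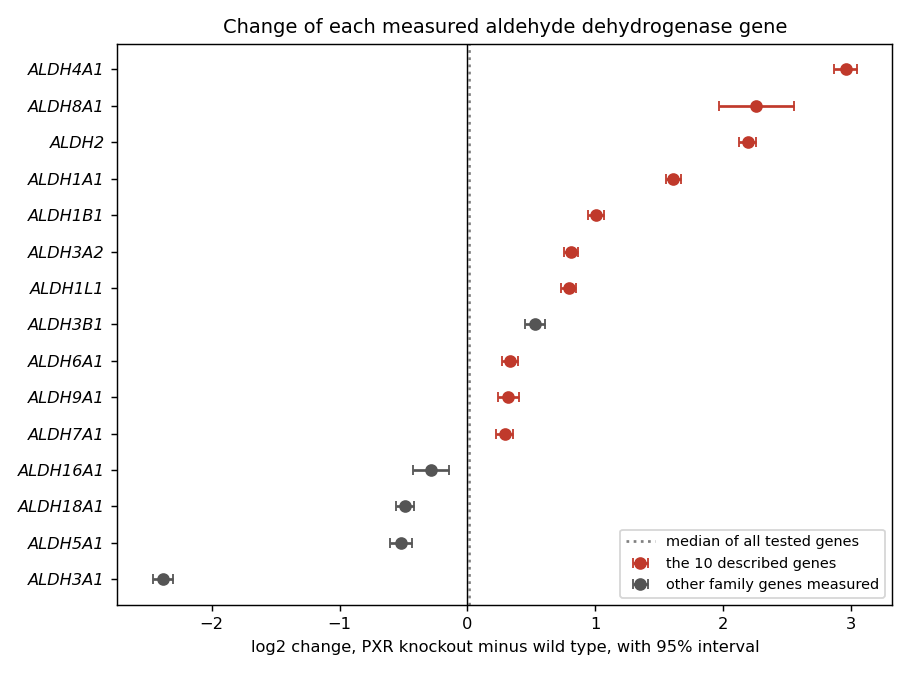
Log2 change, knockout minus wild type, with its 95% interval (horizontal axis) for the 15 measured family genes (rows); red marks the 10 genes described and grey the others, and the dotted line is the median of all tested genes at 0.01. ALDH4A1 lies at 2.96 and ALDH3A1 at -2.39.

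Genes of the pathways around these aldehydes were described by list, with percent called higher over all genes at 40.3% and called lower at 39.6%. Of the genes that make acetaldehyde or use the acetate formed from it, 8 of 10 measured rose and 1 fell, with a median log2 change of 2.04. The alcohol dehydrogenase ADH4 averaged 19.5 ± 1.19 scaled CPM in the knockout and 0.16 ± 0.018 in wild type, where it rested on 9 reads. ADH1A, another alcohol dehydrogenase, averaged 13.4 ± 0.90 in the knockout and 0.11 ± 0.10 in wild type, on 6 reads. ACSS1, which activates acetate in mitochondria, fell to 3.67 ± 0.43 in the knockout, against 6.70 ± 0.32 in wild type.

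Among genes of retinoid oxidation and binding, the pathway around ALDH1A1, 8 of 14 rose and 4 fell (median 0.38). RBP4, the plasma retinol carrier, averaged 888 ± 14.8 scaled CPM in the knockout and 31.4 ± 2.26 in wild type. RDH16, a retinol dehydrogenase, averaged 40.2 ± 1.55 in the knockout and 1.74 ± 0.53 in wild type. CYP26B1, which degrades retinoic acid, fell to 3.25 ± 0.28 in the knockout, against 7.68 ± 0.22 in wild type, and RDH13 fell to 17.4 ± 0.45 in the knockout, against 40.7 ± 1.80 in wild type.

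Folate genes around ALDH1L1 changed in both directions. Of 17 measured, 6 rose and 10 fell (median -0.39). The glycine cleavage enzyme GLDC averaged 70.9 ± 3.45 scaled CPM in the knockout and 11.3 ± 0.85 in wild type, and SHMT1, the cytosolic serine hydroxymethyltransferase, averaged 129 ± 3.44 in the knockout and 71.9 ± 1.62 in wild type. GART, an enzyme of purine synthesis that uses formyltetrahydrofolate, fell to 86.7 ± 2.28 in the knockout, against 190.2 ± 2.96 in wild type. AMT, another glycine cleavage subunit, fell to 1.44 ± 0.25 in the knockout, against 4.38 ± 1.12 in wild type.

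Around ALDH4A1, proline and hydroxyproline genes split, with 3 of 6 higher and 3 lower (median 0.50). PRODH2, the first enzyme of hydroxyproline breakdown, averaged 30.0 ± 2.36 scaled CPM in the knockout and 0.38 ± 0.14 in wild type (22 reads). GRHPR, a glyoxylate reductase further down that route, averaged 211 ± 6.21 in the knockout and 81.9 ± 1.56 in wild type. PYCR3, a gene of proline synthesis, fell with a log2 change of -0.29 ± 0.088 (limma adjusted p = 0.0077). ALDH18A1, of the same synthesis route, also fell. PRODH, which starts proline breakdown, was called lower too, with a log2 change of -0.17.

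Tryptophan breakdown, where ALDH8A1 acts, had 9 of 11 genes higher and 1 lower (median 1.55). ACMSD, which makes the substrate of ALDH8A1, averaged 57.2 ± 2.35 scaled CPM in the knockout and 1.10 ± 0.099 in wild type. TDO2, the tryptophan dioxygenase that opens the pathway in liver, averaged 194 ± 4.66 in the knockout and 12.4 ± 1.03 in wild type. KYAT1, a kynurenine aminotransferase, fell with a log2 change of -0.31 ± 0.069.

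Of 22 genes of valine and other branched chain breakdown, the route of ALDH6A1, 19 rose and 1 fell (median 0.34). With libraries scaled to equal sums 14 were called higher and 2 lower, against 5346 higher and 7715 lower of all 16263 genes tested that way. With small RNA genes left out of the sums 13 were called higher and 3 lower, against 5256 higher and 7873 lower of 16235. MCCC1, a carboxylase subunit of leucine breakdown, averaged 224 ± 4.84 scaled CPM in the knockout and 98.8 ± 1.59 in wild type. BCAT1, the cytosolic aminotransferase, averaged 4.55 ± 0.14 in the knockout and 1.85 ± 0.57 in wild type, while the mitochondrial form BCAT2 fell to 28.8 ± 1.16 in the knockout, against 34.8 ± 0.76 in wild type. ALDH6A1 also ends pyrimidine breakdown, where 5 of 8 genes rose and 2 fell (median log2 change 1.596). AGXT2, an aminotransferase, averaged 8.11 ± 0.58 in the knockout and 0.30 ± 0.15 in wild type (16 reads), and the uridine phosphorylase UPP2 averaged 6.38 ± 0.21 in the knockout and 0.14 ± 0.055 in wild type (8 reads). UPB1, which makes β-alanine, fell to 26.4 ± 1.40 in the knockout, against 37.4 ± 0.67 in wild type, and TYMP, thymidine phosphorylase, fell to 53.9 ± 3.33 in the knockout, against 70.2 ± 4.24 in wild type.

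The lists around ALDH7A1 and ALDH9A1 held some larger rises than these genes themselves, at genes that need not feed them. Of all tested genes, 33.6% rose more than ALDH7A1 and 32.1% more than ALDH9A1. In lysine breakdown 8 of 10 genes rose and 2 fell (median 0.42). PIPOX, the pipecolic acid oxidase, averaged 77.3 ± 0.93 scaled CPM in the knockout and 2.73 ± 0.69 in wild type, and CRYM averaged 11.3 ± 1.06 in the knockout and 2.70 ± 0.34 in wild type. AADAT, an aminotransferase, fell to 6.43 ± 0.90 in the knockout, against 9.32 ± 0.080 in wild type. The hydroxylysine kinase gene HYKK fell by 0.29 on the log2 scale (limma adjusted p = 0.022), a call lost without wild-type library 1, knockout library 1 or knockout library 3 (limma adjusted p = 0.083, 0.068 and 0.097). Of 9 choline and betaine genes 7 rose and 1 fell (median 0.76). SARDH, the sarcosine dehydrogenase, averaged 9.59 ± 0.61 in the knockout and 0.12 ± 0.10 in wild type (7 reads), and GNMT, glycine N-methyltransferase, averaged 4.78 ± 0.39 in the knockout and 0.43 ± 0.15 in wild type. The choline kinase CHKA fell to 37.0 ± 1.54 in the knockout, against 59.4 ± 1.53 in wild type.

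Of 13 genes of carnitine synthesis and of polyamine and amine oxidation, 8 rose and 4 fell (median 0.39). BBOX1, which completes carnitine after the ALDH9A1 step, averaged 7.30 ± 0.54 scaled CPM in the knockout and 1.30 ± 0.23 in wild type. SAT2 averaged 76.9 ± 0.34 in the knockout and 26.98 ± 0.41 in wild type. AOC1, a diamine oxidase that makes γ-aminobutyraldehyde from putrescine, fell to 1.42 ± 0.13 in the knockout, against 5.67 ± 0.82 in wild type, and the spermine oxidase SMOX fell to 9.83 ± 0.46 in the knockout, against 18.2 ± 0.38 in wild type. Of 11 fatty aldehyde and sphingolipid genes, on the route to ALDH3A2, 7 rose and 1 fell (median 0.30). The ceramidase ACER2 averaged 14.0 ± 0.56 in the knockout and 1.23 ± 0.13 in wild type, and AGMO, which cleaves ether lipids to fatty aldehydes, averaged 9.76 ± 0.22 in the knockout and 2.33 ± 0.37 in wild type. FAR1, an enzyme that makes fatty alcohols, fell to 0.30 ± 0.11 in the knockout, against 1.45 ± 0.39 in wild type.

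Enzymes outside the family that also clear aldehydes gave a mixed picture, with 6 of 11 higher and 3 lower (median 0.12). The aldehyde oxidase AOX1 averaged 507 ± 6.46 scaled CPM in the knockout and 154 ± 6.01 in wild type, and the aldo-keto reductase AKR7A3 averaged 114 ± 2.49 in the knockout and 31.9 ± 0.60 in wild type. The carbonyl reductase CBR3 fell to 1.87 ± 0.13 in the knockout, against 8.55 ± 0.72 in wild type, and CBR1 fell to 68.7 ± 1.11 in the knockout, against 116 ± 0.85 in wild type.

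**Figure D5:**
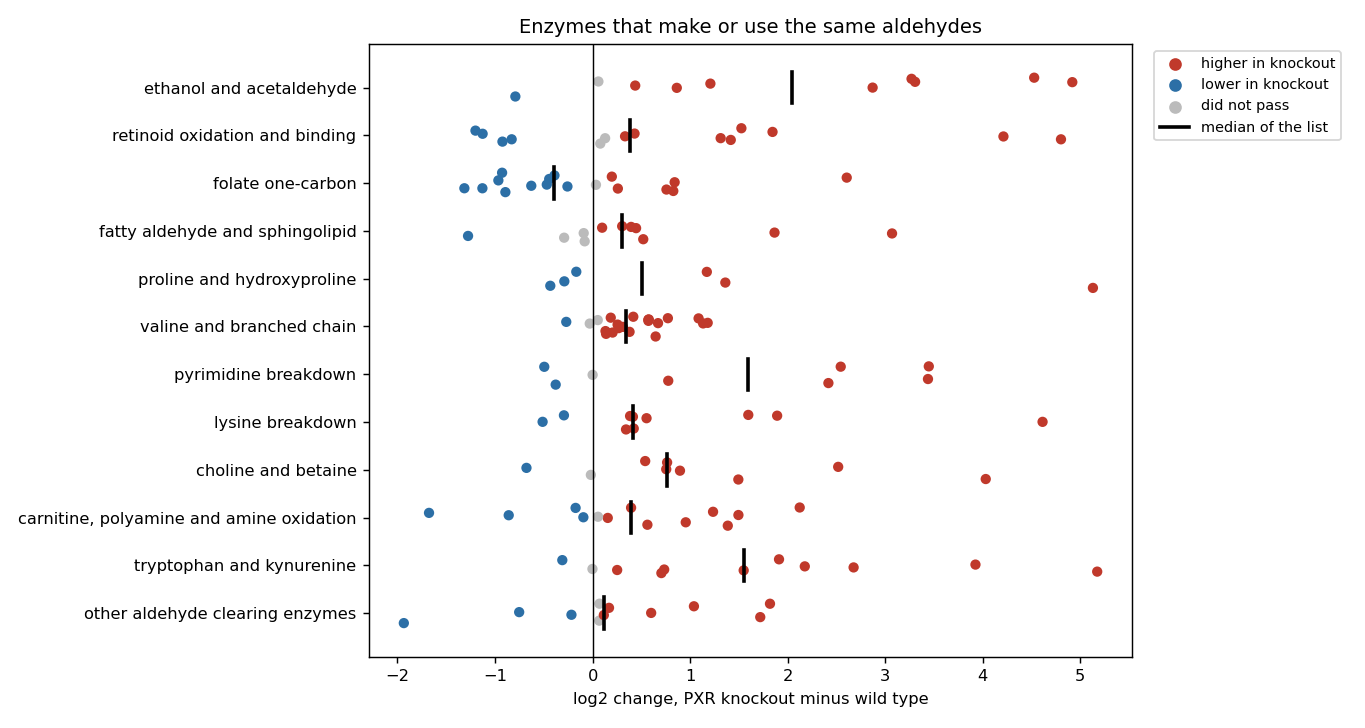
Log2 change, knockout minus wild type (horizontal axis), of each tested gene in 12 lists from pathways around the same aldehydes (rows). Red points were called higher, blue lower and grey neither. The black bar is the median of the list. The list medians run from -0.39 for folate genes to 2.04 for ethanol and acetaldehyde genes.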

How the data were processed

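RNA of untreated HepaRG cells was measured in 3 PXR knockout libraries and 3 wild-type libraries, grouped by their titles. Per the labels' protocols, libraries were made with a stranded mRNA kit. The build hg38 and the tools Bowtie2, limma, edgeR, Trim Galore and FastQC stand, without versions, in the submitters' processing notes. The deposited table holds a normalized signal on a linear scale (scaled CPM), although it is named for log2 values. Its columns sum to 936409 to 1042830, and depth was estimated from the smallest common value in each library, taken as 1 read. Among values below 20 reads, 67.9% to 76.4% came out whole (tolerance 0.006), so no count test was used.

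The 14 second copies of pseudoautosomal genes were left out, leaving 16659 genes, and 16608 identifiers matched GENCODE 29 on GRCh38. Genes above 1 scaled CPM in at least 3 of 6 libraries were tested as log2(scaled CPM + 0.5) with limma 3.58.1 in R 4.3.3, by group, using its trended variance prior. P-values were two-sided and adjusted by Benjamini and Hochberg's method over 16219 genes, with a threshold of 0.05. This scale understates changes of low genes. The fit was tested on simulated data. Python 3.11.15, pandas 2.3.3, numpy 2.4.6, scipy 1.17.1 and matplotlib 3.10.9 were used. Between libraries of a group the chi-square per gene on estimated reads had means of 2.25 to 9.80 and medians of 0.636 to 0.914, so a minority of genes carried the means. All libraries were counted as separate samples.

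The members and lists were chosen with earlier results of these data known. Genes named were the 10 members, the other family genes measured, at most 2 rises and 2 falls per list (by size, past the threshold), and NR1I2. 1 gene that this rule names is not reported here. PRODH, overlapping genes and markers were named outside that rule. Genes that share exon positions with ALDH3A1, ALDH8A1 and ALDH9A1 were not analysed here. Promoter sequences are from RefSeq. Alternatives were pseudocounts of 0.1 and 1, no filter and a filter at 5, 3 other scalings, no trend, a replicate block, removal of the median within 10 Mb and leaving out each library.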

Additional observations from a re-analysis of the deposited data

How the results depend on the processing

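For the 10 members, 160 of 160 values under the alternatives kept their direction and their side of the threshold, and the count stayed at 10 higher and 0 lower. Without any 1 library the log2 change of ALDH9A1 ran from 0.27 to 0.35 and that of ALDH7A1 from 0.28 to 0.32. With the replicate block all 10 members were still higher, and 6518 genes were higher and 6398 lower. Deviations of libraries sharing a number had correlations of -0.020, -0.061 and 0.025, and those of other pairs ran from -0.046 to 0.066. With 3 libraries per group this check cannot show whether the numbers pair them. The number of fatty aldehyde and sphingolipid genes called lower, 1 with the deposited scaling, was 0 with the filter at 5 scaled CPM, 4 with equal sums, 4 with equal sums without small RNA genes and 2 with quantile normalization, and ran from 1 to 2 when a library was left out. Genes of branched chain breakdown called lower numbered 2 with equal sums and 3 without small RNA genes, in place of 1. Genes of lysine breakdown called lower ran from 1 to 2 when a library was left out. Apart from leaving out a library, the alternatives gave 13 to 19 branched chain genes called higher, 4 to 6 folate genes, 5 to 7 choline genes, 7 to 9 tryptophan genes and 4 to 6 other aldehyde clearing genes. Low wild-type depth limits ALDH8A1 most among the 10 members, at 75 reads. Pathway genes with fewer reads are less certain in size, as for ADH1A (6 reads), whose log2 change was 6.13 with a pseudocount of 0.1 and 3.70 with a pseudocount of 1. No value reversed.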
